A study of Mus musculus with 12 samples.

Results

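Mitochondrial fatty acid oxidation genes and classical target genes of the nuclear receptor PPAR alpha were followed in mouse embryonic fibroblasts (MEFs), connective tissue cells grown from embryos, of 3 Sirt1 genotypes. The group is a list of 31 genes, found by gene name among the non-control probes of the array. All 31 were present among 27962 gene names, and 30 of them were among the 16990 that were bright enough to be tested. Ucp3, a mitochondrial carrier of muscle and brown fat, did not rise well above background on any of the 12 arrays and was left untested. The list was drawn up with earlier results of these data known.

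Fatty acids enter mitochondria as carnitine esters and are shortened there by a repeating cycle of dehydrogenation, hydration, a further dehydrogenation and thiolysis. Electrons from the first step reach the respiratory chain through the electron transfer flavoprotein. PPAR alpha, a receptor activated by fatty acids, pairs with a retinoid X receptor on DNA and raises transcription of many of these genes in liver, heart and other tissues that burn fat, and SIRT1, an NAD-dependent protein deacetylase, is known to act on PPAR alpha signalling and on its coactivator PGC-1 alpha.

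The study compared female SIRT1 knockout (KO), SIRT1 heterozygous (Het) and wild-type (WT) MEFs, with 4 one-colour arrays for each genotype. The cells were untreated. Their medium held 10% serum (FBS), glucose at 25 mM and glutamine at 4 mM, and each array took 500 ng of RNA. The labels do not describe the allele. They also do not state whether replicates came from different cultures, and the p-values cover the spread between these samples alone, part or all of which may be technical. Each level below is the log2 signal minus the log2 of that array's 75th percentile, and a level of 0 equals the percentile. A gene was called when its limma adjusted p (Benjamini-Hochberg over all 16990 genes tested) was under 0.05.

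Some arrays stood apart. At the Sirt1 probe at chr10:62838289-62838348 (build mm7) the mean level was -0.52 in KO, 0.31 in Het and 0.30 in WT cells (KO minus WT -0.82, limma adjusted p = 0.0366 in a fit of single probes). Het minus WT was 0.02 at this probe. A second and on average brighter Sirt1 probe, at chr10:62855795-62855854, showed no loss. It averaged 0.76 in KO and 0.73 in WT cells (limma adjusted p = 0.977 in the same fit). Since the labels do not describe the allele, whether either probe lies in an altered part of the gene is not known. The array labelled WT replicate 3 went against its label of female cells: Xist was at -2.98 there and at 1.60 to 3.35 on the other arrays, and the Y-linked Ddx3y was at 0.99 there and at most at -4.41 elsewhere. Pairs of arrays of one genotype correlated at 0.925 to 0.969 where one was numbered 3 and at 0.970 to 0.998 otherwise, so results are also given without the 3 arrays of that number. KO replicates 4 and 5 were the closest pair (r = 0.998), with 87 of 16990 genes more than 2-fold apart. All 10 fibroblast markers and 2 of 8 adipocyte markers were well above background on all 12 arrays. The array medians of the 8 adipocyte markers lay between -6.97 and -6.65 in KO, -7.11 and -5.97 in Het and -7.00 and -6.41 in WT cells. The 2 were Fabp4, which averaged -0.39 in KO, -0.23 in Het and -0.57 in WT cells, and Lipe, which averaged -3.45, -3.69 and -3.38. Of the 10 fibroblast markers, 1 was called in KO minus WT, 0 in Het minus WT and 2 in KO minus Het. Thy1 fell by 3.47 in KO minus WT (limma adjusted p = 0.00145). In KO minus Het, Thy1 and Dcn fell by 2.16 and 3.21 (limma adjusted p = 0.00985 and 0.0187). The other markers went both ways in KO minus WT. Col1a1, Col1a2, Col3a1 and Pdgfrb differed by 0.16, 0.31, 0.27 and 0.29. Pdgfra, Vim, Fn1, Dcn and S100a4 differed by -0.91, -0.13, -0.29, -1.97 and -1.10. Of 8 epithelial and mesothelial markers, 1 was called in KO minus WT (Epcam, 1.59, limma adjusted p = 0.0454). The other tested markers of this list went both ways there. Cdh1, Krt8, Krt18 and Msln differed by 2.61, 1.36, 2.27 and 1.17. Krt19 and Upk3b differed by -1.61 and -2.49, and Wt1 was left untested. Epcam, Cdh1, Krt8 and Upk3b were well above background on 8, 8, 9 and 6 of the 12 arrays. Signal over background therefore limits the differences of these genes. The 2 called in Het minus WT went opposite ways, Krt8 by 3.37 and Upk3b by -3.15 (limma adjusted p = 0.0392 and 0.0412). Their part in the results below was not tested, and in bulk RNA fewer cells of a type and less RNA per cell cannot be told apart.

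Sequences that bear on some of the members that differed are shown first. Acot1 and Acot2, which release free fatty acids from acyl-CoA in the cytosol and in mitochondria, are neighbouring genes on chromosome 12, and Eci2 and Eci3, both enoyl-CoA isomerases, are neighbours on chromosome 13. The first 30 of the 60 bases of the array probe that read each of them are given below with the probe's position on build mm7, since related genes could share signal. Cross-hybridisation was not tested.

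Acot1, chr12:82013539-82013598: tatcaaaatagtgctgattcaagggctggg
Acot2, chr12:81989158-81989217: ggggaaacctcatatatattatcacaatgt
Eci2, chr13:34392997-34393056: acgacacatgcttctctgtgccttttcctt
Eci3, chr13:34362279-34363319: ccaggctgaaaacatattcgaagctctcgc

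RefSeq promoter windows (build GRCm38.p6) were found for 26 of the 31 members, in 27 windows, and the 250 bases before each start site were searched on both strands. The motif bound by PPAR alpha with its partner, AGGTCANAGGTCA, a direct repeat spaced by 1 base, occurred with at most 2 mismatches in 3 of the 27 member windows (11.1%: Echs1, Etfa and Ucp3), against 3.24% of all 32851 windows. No member window held the repeat without a mismatch, against 0.0335% of all windows. The single unit AGGTCA, which also lies inside the repeat, occurred in 5 member windows (18.5%) against 14.0% of all windows. Median GC content was 58.8% in member windows and 52.4% in all windows, and its part in these shares was not tested. Windows of 5 members are printed. Acot1, Acot2, Eci2 and Echs1 were picked by hand from the members called in one of the fits below. Others called there, such as Ucp2, Eci1 and Acadm, are not printed. Hadhb was added because it shares its window with Hadha. Capitals mark the full motif, which only the Echs1 window of these 5 holds, 83 bases before the start site. A match is a description of the letters and shows no binding.

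Acot1, chr12:84009252-84009501, plus strand: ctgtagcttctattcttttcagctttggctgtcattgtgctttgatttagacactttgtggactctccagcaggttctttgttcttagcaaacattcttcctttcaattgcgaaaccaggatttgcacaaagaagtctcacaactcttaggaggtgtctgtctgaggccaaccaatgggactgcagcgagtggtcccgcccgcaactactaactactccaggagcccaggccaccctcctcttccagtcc
Acot2, chr12:83987611-83987860, plus strand: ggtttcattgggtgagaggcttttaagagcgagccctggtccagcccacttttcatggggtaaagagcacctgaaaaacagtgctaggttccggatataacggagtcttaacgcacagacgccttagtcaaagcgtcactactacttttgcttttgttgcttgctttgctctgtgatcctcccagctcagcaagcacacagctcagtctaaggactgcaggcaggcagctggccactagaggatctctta
Eci2, chr13:34994145-34994394, minus strand: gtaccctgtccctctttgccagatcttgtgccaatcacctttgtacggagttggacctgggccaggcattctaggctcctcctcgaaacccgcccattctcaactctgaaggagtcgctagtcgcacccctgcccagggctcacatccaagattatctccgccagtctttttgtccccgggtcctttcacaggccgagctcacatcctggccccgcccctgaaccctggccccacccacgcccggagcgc
Echs1, chr7:140116422-140116671, minus strand: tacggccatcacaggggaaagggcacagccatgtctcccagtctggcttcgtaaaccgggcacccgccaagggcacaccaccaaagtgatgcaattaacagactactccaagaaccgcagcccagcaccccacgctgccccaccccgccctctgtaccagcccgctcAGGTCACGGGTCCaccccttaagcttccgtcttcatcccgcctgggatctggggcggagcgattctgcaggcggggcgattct
Hadhb, chr5:30155003-30155252, plus strand: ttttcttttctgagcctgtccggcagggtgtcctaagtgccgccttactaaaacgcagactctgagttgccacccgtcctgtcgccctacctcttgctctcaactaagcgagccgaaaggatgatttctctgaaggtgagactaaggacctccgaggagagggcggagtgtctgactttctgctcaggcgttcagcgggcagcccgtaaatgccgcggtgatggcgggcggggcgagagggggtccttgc

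The Acot1 and Acot2 windows were identical at 128 of 217 aligned positions (59.0%). Hadha and Hadhb, the subunits of the mitochondrial trifunctional protein, are transcribed away from each other, with 272 bases between their start sites and 228 bases shared by their windows.

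In KO cells, 2 of the 30 tested members rose against WT cells and none fell, where 1.76% of all genes tested were called (1.08% higher and 0.683% lower). Acot1 was 2.73-fold higher and Eci2, which moves double bonds so that unsaturated fatty acids can enter the cycle, was 1.70-fold higher. In Het cells no member was called against WT (8 had an unadjusted limma p under 0.05), where 1.25% of all genes were called (0.753% higher and 0.494% lower), and in KO against Het cells none was called either (4 had an unadjusted p under 0.05), where 0.965% of all genes were called (0.577% higher and 0.388% lower). By direction alone 23 of 30 members lay higher in KO than in WT, with a median difference of 0.28 on the log2 scale, against 59.3% of all genes and a median of 0.08. In Het against WT 24 of 30 lay higher with a median of 0.27, against 59.8% of all genes and a median of 0.09, and in KO against Het 16 of 30 lay higher with a median of 0.12, against 47.3% of all genes and a median of -0.02. Both comparisons with WT share the same 4 WT arrays. On unscaled signals 15 of 30 members lay higher in Het than in WT, with a median of 0.02 where the median of all genes was -0.16, and 23 of 30 lay higher in KO than in Het, with a median of 0.37 where that of all genes was 0.23.

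The genotypes did not overlap, with every KO array above every WT array, for 7 members (23.3%), and none lay wholly below, where 9.09% of all genes did not overlap (6.21% higher and 2.88% lower). In Het against WT, 7 members lay wholly above and none below (9.39% of all genes, 6.53% higher and 2.85% lower). In KO against Het, 1 lay wholly above and 2 below (10.6% of all genes, 4.44% higher and 6.2% lower).

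Without the arrays numbered 3, 7 members rose in KO against WT and none fell, where 17.4% of all 17807 genes tested were called (8.91% higher and 8.47% lower). The members' share was 23.3%. Those 7 were Acadm, Echs1, Eci1, Eci2, Ehhadh, Acot1 and Ucp2. With KO replicates 4 and 5 averaged as well, 2 of them (Acot1 and Ucp2) were called, where 8.24% of all genes were called. Acadm, Eci1 and Eci2 were then at 0.64, 0.59 and 0.69 (limma adjusted p = 0.106, 0.0844 and 0.0636). In Het against WT, 5 rose (Acot1, Acot2, Ucp2, Echs1 and Ppard) and Hadhb fell, where 12.5% of all genes were called (6.49% higher and 5.97% lower). Of these, Ppard was close to background, and only 2 of the 4 WT arrays were well above it. In KO against Het, Acot2 fell and no member rose, where 9.16% of all genes were called (4.63% higher and 4.53% lower).

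**Figure D1:**
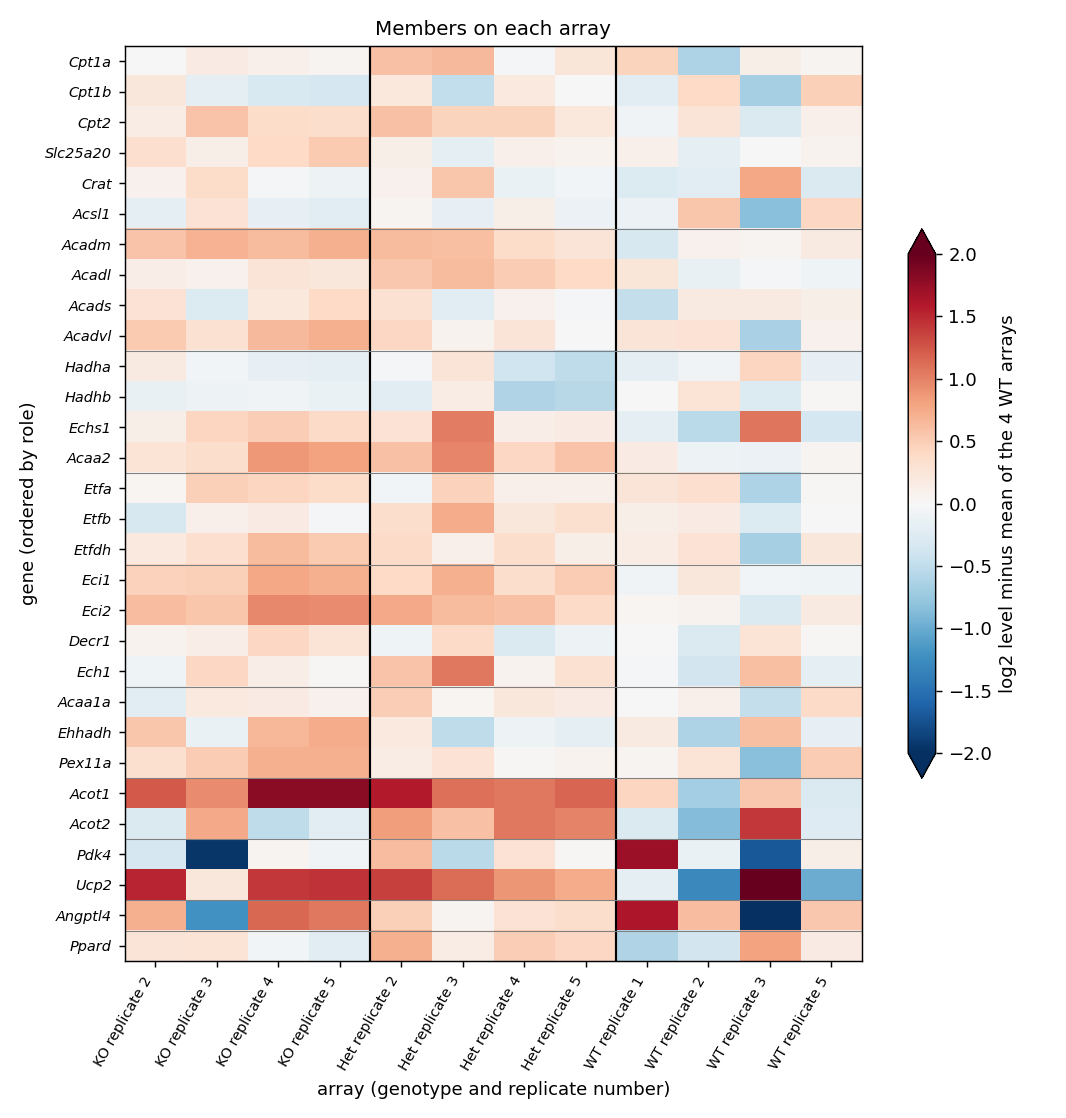
Level of each of the 30 tested members (rows, ordered by role) on each of the 12 arrays (columns, KO, Het and WT from left to right), as the log2 level minus the mean of the 4 WT arrays. Acot1 is above the WT mean on every KO and Het array, and the column of WT replicate 3 departs from the other WT columns for Ucp2, Angptl4, Pdk4 and Acot2.

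**Figure D2:**
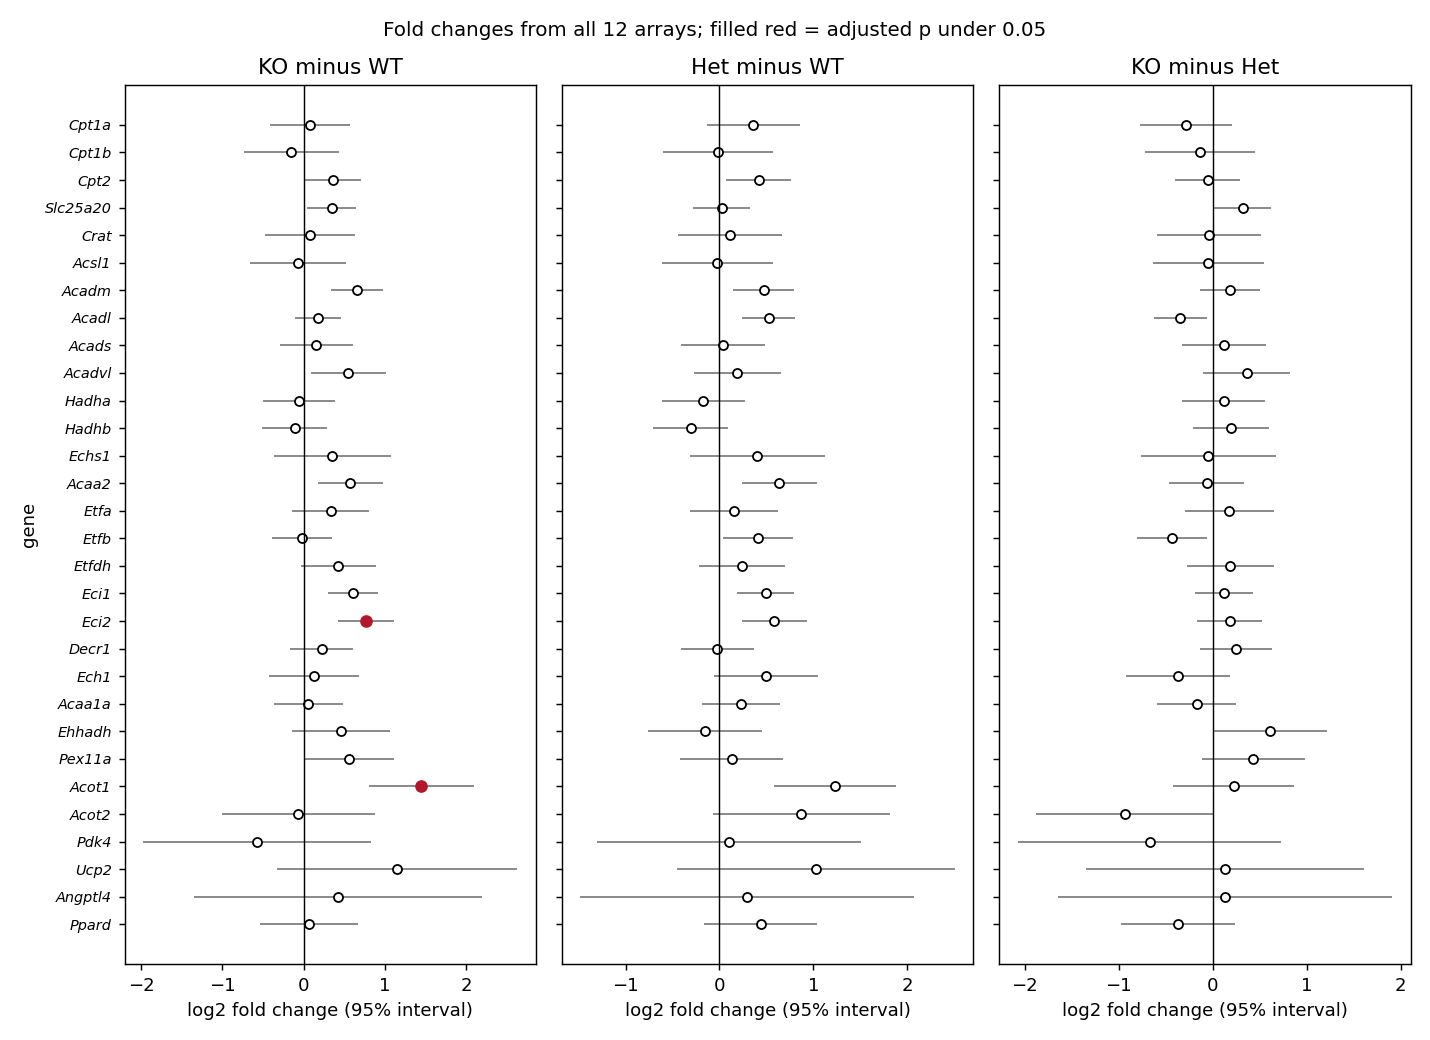
Log2 fold changes of the 30 tested members in the 3 comparisons, from all 12 arrays, with 95% intervals. Filled red points passed the limma adjusted p threshold of 0.05, which are Eci2 and Acot1 in KO minus WT.

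None of the genes of carnitine transport and activation was called by limma on all arrays or without those numbered 3. Cpt1a and Cpt1b, the outer-membrane carnitine palmitoyltransferases that set the rate of entry, differed between KO and WT by 0.08 (SE 0.22) and -0.15 (SE 0.27) on the log2 scale. Their second probes differed by -0.24 for Cpt1a and -0.54 for Cpt1b, and neither was called. Slc25a20, the carnitine-acylcarnitine carrier of the inner membrane, had levels of 0.53, 0.31, 0.59 and 0.71 in KO, 0.31, -0.01, 0.30 and 0.27 in Het and 0.29, 0.02, 0.20 and 0.26 in WT cells. Every KO array was above every WT array, and the highest Het array was level with the lowest KO array. The difference was 0.34 (SE 0.14, limma adjusted p = 0.238) for KO minus WT and 0.32 (SE 0.14, limma adjusted p = 0.421) for KO minus Het. Cpt2, the inner-membrane transferase, was higher by 0.36 in KO and by 0.42 in Het than in WT cells (limma adjusted p = 0.273 and 0.218). Crat and Acsl1, which make acetyl-carnitine and long-chain acyl-CoA, differed by 0.08 and -0.07 in KO minus WT. Acsl1 differed without the arrays numbered 3 by -0.47 (limma adjusted p = 0.116), with every remaining KO array below every remaining WT array. Without those arrays KO minus WT was -0.36 for Cpt1b, 0.19 for Cpt2 and 0.25 for Crat, and none was called.

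The acyl-CoA dehydrogenases, which carry out the first step on chains of different length, were all higher in KO than in WT cells, but none passed the test. Acadm, the medium-chain enzyme, had levels of 3.18, 3.31, 3.23 and 3.31 in KO, 3.24, 3.21, 2.98 and 2.87 in Het and 2.29, 2.69, 2.66 and 2.79 in WT cells. Neither KO nor Het arrays overlapped the WT arrays. The difference was 0.65 (SE 0.15, limma adjusted p = 0.0503) in KO minus WT and 0.47 (SE 0.15, limma adjusted p = 0.142) in Het minus WT, and without the arrays numbered 3 the first was 0.65 (limma adjusted p = 0.0313). Without WT replicate 3 alone it was 0.67 (limma adjusted p = 0.0228), and with KO replicates 4 and 5 averaged it was 0.65 (limma adjusted p = 0.168). Acadl, the long-chain enzyme, had levels of 1.04, 0.97, 1.16 and 1.12 in KO, 1.44, 1.54, 1.41 and 1.29 in Het and 1.13, 0.76, 0.88 and 0.82 in WT cells. The Het arrays were above all KO and all WT arrays, while KO and WT arrays overlapped. Acadl differed by 0.52 (SE 0.13, limma adjusted p = 0.0727) in Het minus WT and by -0.35 (SE 0.13, limma adjusted p = 0.310) in KO minus Het. Of the 12 omissions of single arrays, only 1 gave a call in Het minus WT, that of WT replicate 3 (0.52, limma adjusted p = 0.0355), and the adjusted p reached 0.219. Without all arrays numbered 3, Het minus WT was 0.48 and was not called (limma adjusted p = 0.0592). Acadvl, the very-long-chain enzyme, had levels of 4.39, 4.16, 4.51 and 4.57 in KO, 4.28, 3.93, 4.12 and 3.86 in Het and 4.12, 4.16, 3.22 and 3.95 in WT cells. WT replicate 3 was the lowest, and KO minus WT was 0.55 (SE 0.21, limma adjusted p = 0.218). Acads, the short-chain enzyme, differed by 0.15 in KO minus WT, and by 0.36 without the arrays numbered 3.

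Of the later steps, Echs1, which hydrates the enoyl-CoA, had levels of 2.20, 2.50, 2.56 and 2.45 in KO, 2.37, 3.10, 2.20 and 2.24 in Het and 1.88, 1.53, 3.15 and 1.73 in WT cells. The highest values in Het and in WT were both on arrays numbered 3, and the genotypes overlapped. KO minus WT was 0.35 (SE 0.33, limma adjusted p = 0.656), and without the arrays numbered 3 it was 0.69 (limma adjusted p = 0.0164). Het minus WT was 0.40 (SE 0.33, limma adjusted p = 0.571), and without those arrays 0.55 (limma adjusted p = 0.0468). With KO replicates 4 and 5 also averaged neither was called (0.64 and 0.55, limma adjusted p = 0.0736 and 0.0773).

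Acaa2, the mitochondrial thiolase, had levels of 3.94, 4.02, 4.54 and 4.47 in KO, 4.25, 4.66, 4.08 and 4.24 in Het and 3.83, 3.57, 3.55 and 3.73 in WT cells. All KO and all Het arrays were above all WT arrays, but the differences of 0.57 (SE 0.18, limma adjusted p = 0.145) and 0.64 (SE 0.18, limma adjusted p = 0.111) were not called. Hadhb had levels of 2.49, 2.54, 2.58 and 2.51 in KO, 2.42, 2.80, 2.04 and 2.09 in Het and 2.63, 2.91, 2.36 and 2.66 in WT cells. Het replicates 4 and 5 were the lowest of all 12 arrays. Het minus WT was -0.31 (SE 0.18, limma adjusted p = 0.429), and without the arrays numbered 3 it was -0.55 (limma adjusted p = 0.0454). With KO replicates 4 and 5 averaged as well, the call was lost at the same difference of -0.55 (limma adjusted p = 0.0825). Hadha, which shares the promoter window printed above, differed by -0.17 (SE 0.20) in Het minus WT.

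Etfa and Etfb form the electron transfer flavoprotein, and Etfdh passes its electrons to ubiquinone. Etfb had levels of 4.38, 4.81, 4.87 and 4.66 in KO, 5.06, 5.45, 4.94 and 5.02 in Het and 4.82, 4.87, 4.43 and 4.70 in WT cells. The Het arrays were above all KO and WT arrays, with differences of 0.41 (SE 0.17, limma adjusted p = 0.251) in Het minus WT and -0.44 (SE 0.17, limma adjusted p = 0.338) in KO minus Het. Etfb differed by 0.21 in Het minus WT without the arrays numbered 3. Etfa and Etfdh differed by 0.33 and 0.42 in KO minus WT, and neither was called. WT replicate 3 was the lowest WT array for both (2.87 for Etfa and 1.91 for Etfdh), and without it the differences were 0.12 and 0.20. Without all arrays numbered 3 they were 0.07 and 0.23.

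The auxiliary enzymes for unsaturated fatty acids held one of the 2 calls. Eci2 (named Peci on the array) had levels of 4.60, 4.54, 4.95 and 4.94 in KO, 4.75, 4.62, 4.57 and 4.37 in Het and 4.03, 4.06, 3.71 and 4.18 in WT cells. All KO and Het arrays were above all WT arrays, and KO and Het overlapped. KO minus WT was 0.76 (SE 0.16, 95% interval 0.42 to 1.11, limma adjusted p = 0.0395) and Het minus WT was 0.58 (SE 0.16, limma adjusted p = 0.0976). Taken within slides, KO minus WT stood at 0.72 on slide 3 and 0.76 on slide 4, and with slide fitted as a block it became 0.76 (limma adjusted p = 0.174). The call was lost without any 1 of 9 arrays (KO replicates 2, 4 and 5, Het replicates 2, 4 and 5 and WT replicates 1, 2 and 5), with differences of 0.67 to 0.84 and adjusted p up to 0.151 over all 12 omissions, and with KO replicates 4 and 5 averaged (0.70, limma adjusted p = 0.150).

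Eci1 (named Dci on the array), its mitochondrial relative, had levels of 3.28, 3.29, 3.59 and 3.52 in KO, 3.22, 3.52, 3.17 and 3.31 in Het and 2.74, 3.03, 2.76 and 2.72 in WT cells. All KO and Het arrays were again above all WT arrays. The difference was 0.61 (SE 0.14, limma adjusted p = 0.0551) in KO minus WT and 0.49 (SE 0.14, limma adjusted p = 0.111) in Het minus WT, and without the arrays numbered 3 KO minus WT was 0.63 (limma adjusted p = 0.0196). Without WT replicate 3 alone it was 0.59 (limma adjusted p = 0.0291). Decr1 and Ech1, which reduce and isomerise dienoyl-CoAs, differed by 0.22 and 0.12 in KO minus WT, and by 0.35 and 0.23 without the arrays numbered 3.

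Among the peroxisomal genes, Ehhadh, the bifunctional enzyme of peroxisomal oxidation and a classical PPAR alpha target in rodent liver, had levels of -2.52, -3.21, -2.42 and -2.35 in KO, -2.89, -3.59, -3.19 and -3.27 in Het and -2.90, -3.70, -2.49 and -3.25 in WT cells. Replicate 3 was the lowest KO and the lowest Het array and the highest WT array. KO minus WT was 0.46 (SE 0.28, limma adjusted p = 0.440), and without the arrays numbered 3 it was 0.85 (limma adjusted p = 0.0253), or 0.83 (limma adjusted p = 0.0896) with KO replicates 4 and 5 averaged as well. KO minus Het was 0.61 (SE 0.28, limma adjusted p = 0.442). Pex11a, which promotes peroxisome division, had levels of 0.23, 0.43, 0.63 and 0.63 in KO, 0.06, 0.20, -0.06 and -0.01 in Het and -0.03, 0.20, -0.92 and 0.42 in WT cells. Every KO array was above every Het array, with a difference of 0.43 (SE 0.25, limma adjusted p = 0.581). Acaa1a, the peroxisomal thiolase, differed by 0.06 in KO minus WT, and by -0.15 without the arrays numbered 3.

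Of the members, the thioesterase Acot1 had the largest difference from WT on all 12 arrays, while Ucp2 had the largest without the arrays numbered 3. Acot1 had levels of -0.20, -0.47, 0.39 and 0.38 in KO, 0.16, -0.32, -0.37 and -0.26 in Het and -0.99, -2.10, -0.88 and -1.72 in WT cells. All KO and Het arrays were above all WT arrays, and KO and Het overlapped. KO minus WT was 1.45 (SE 0.30, 95% interval 0.80 to 2.10, limma adjusted p = 0.0371) and Het minus WT was 1.23 (SE 0.30, limma adjusted p = 0.0701). Taken within slides, KO minus WT stood at 1.29 on slide 3 and 2.10 on slide 4, and with slide fitted as a block it became 1.70 (limma adjusted p = 0.0839). Without the arrays numbered 3 both differences were called, at 1.79 (limma adjusted p = 0.00533) and 1.45 (limma adjusted p = 0.0176), and both were also called with KO replicates 4 and 5 averaged in addition (1.70 and 1.45, limma adjusted p = 0.0281 and 0.0329). On all arrays the KO call was lost without any 1 of 8 arrays (KO replicates 2, 4 and 5, Het replicates 2, 4 and 5 and WT replicates 2 and 5), with differences of 1.22 to 1.63 and adjusted p up to 0.142 over all 12 omissions, and with KO replicates 4 and 5 averaged (1.33, limma adjusted p = 0.137).

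Its neighbour Acot2 differed in another way. Acot2 had levels of -2.21, -1.16, -2.42 and -2.13 in KO, -1.07, -1.33, -0.85 and -0.92 in Het and -2.20, -2.78, -0.50 and -2.17 in WT cells. Replicate 3 was the highest array in KO and in WT. Het minus WT was 0.87 (SE 0.43, limma adjusted p = 0.334) and KO minus Het was -0.94 (SE 0.43, limma adjusted p = 0.448). Without the arrays numbered 3 these were 1.44 (limma adjusted p = 0.00252) and -1.31 (limma adjusted p = 0.00351), while KO minus WT was 0.13 (limma adjusted p = 0.692). Without WT replicate 3 alone, Het minus WT was 1.34 (limma adjusted p = 0.0213).

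**Figure D3:**
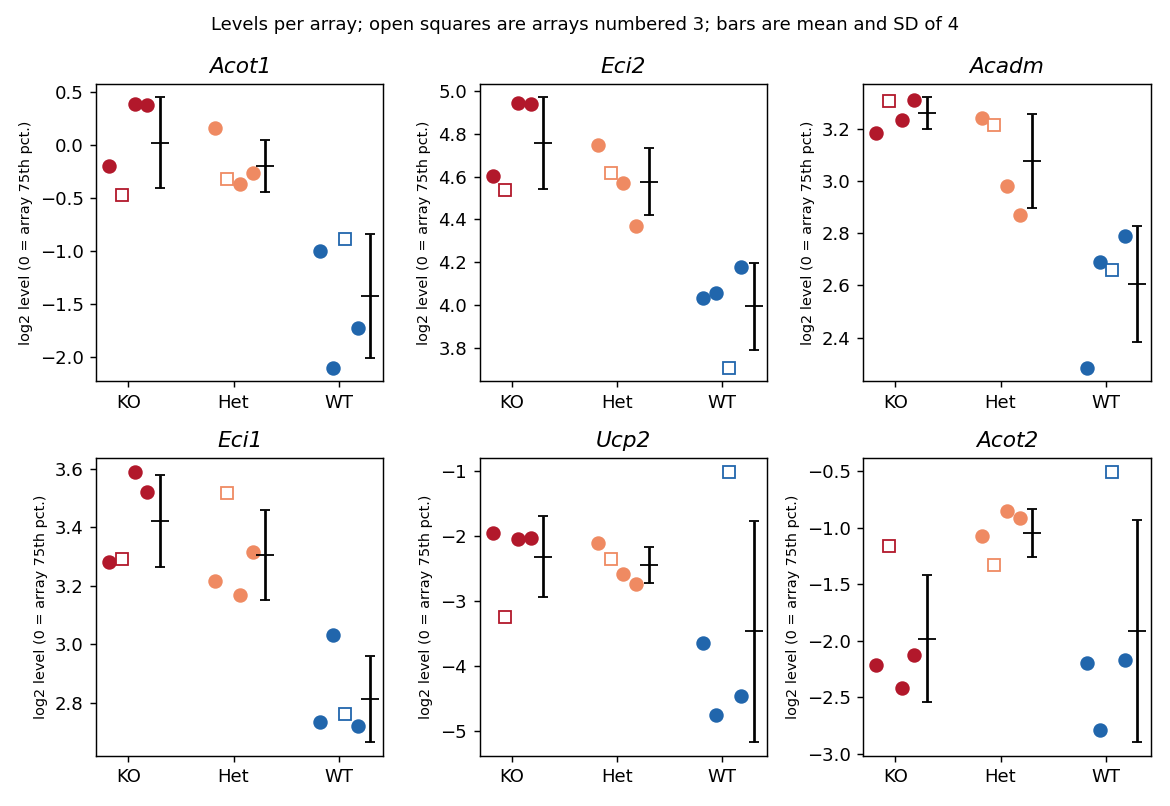
Log2 level of Acot1, Eci2, Acadm, Eci1, Ucp2 and Acot2 on each array, with KO, Het and WT from left to right and the mean and SD of 4 arrays beside each genotype. Open squares are the arrays numbered 3, which for Ucp2 is the highest WT array (-1.01) and the lowest KO array (-3.25).

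Ucp2, an inner-membrane carrier of the uncoupling protein family, had levels of -1.95, -3.25, -2.05 and -2.02 in KO, -2.10, -2.35, -2.59 and -2.73 in Het and -3.65, -4.76, -1.01 and -4.46 in WT cells. The 3 WT arrays other than replicate 3 were below every KO and Het array, and WT replicate 3 was above them all. On all arrays KO minus WT was 1.15 (SE 0.67, limma adjusted p = 0.425) and Het minus WT was 1.02 (SE 0.67, limma adjusted p = 0.473). Without the arrays numbered 3 they were 2.28 (4.87-fold, limma adjusted p = 0.00134) and 1.82 (3.52-fold, limma adjusted p = 0.00539). Without WT replicate 3 alone they were 1.97 and 1.85 (limma adjusted p = 0.00930 and 0.0144). A second Ucp2 probe, well above background on 11 arrays, differed by 0.95 in KO minus WT and was not called. Its remaining probe, well above background on 4 arrays, averaged -8.05 in KO, -7.91 in Het and -8.04 in WT cells.

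Pdk4, which restrains glucose oxidation by phosphorylating pyruvate dehydrogenase, averaged -2.99 ± 0.92 in KO, -2.32 ± 0.49 in Het and -2.42 ± 1.39 in WT cells (SD, n = 4). Angptl4, a secreted inhibitor of lipoprotein lipase, averaged -0.67 ± 1.10 in KO, -0.81 ± 0.18 in Het and -1.10 ± 1.91 in WT cells (SD, n = 4). For both genes replicate 3 was the lowest array in KO and in WT, and no comparison was called. Angptl4 in Het minus WT was 0.29 on all arrays and changed sign without those numbered 3, at -0.55 (limma adjusted p = 0.250), with every remaining Het array below every remaining WT array. Its KO minus WT was 0.42 on all arrays, 0.04 without those arrays and -0.50 without WT replicate 3 alone. Pdk4 in KO minus WT was -0.57 on all arrays, -1.14 without WT replicate 3, and 0.13 with slide fitted as a block. Ppard, the gene of the related receptor PPAR delta, had levels of -5.48, -5.46, -5.80 and -5.95 in KO, -5.03, -5.60, -5.25 and -5.32 in Het and -6.34, -6.10, -4.93 and -5.58 in WT cells, close to background. It was well above background on all 4 KO and all 4 Het arrays but on 2 of the 4 WT arrays, so it was tested through KO and Het. On WT replicates 1 and 2 it was below the lowest level well above background there (-6.31 and -5.56), which limits its differences from WT. Het minus WT was 0.44 (SE 0.28, limma adjusted p = 0.453), and without the arrays numbered 3 it was 0.80 (limma adjusted p = 0.0470), or 0.80 (limma adjusted p = 0.0747) with KO replicates 4 and 5 averaged as well.

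**Figure D4:**
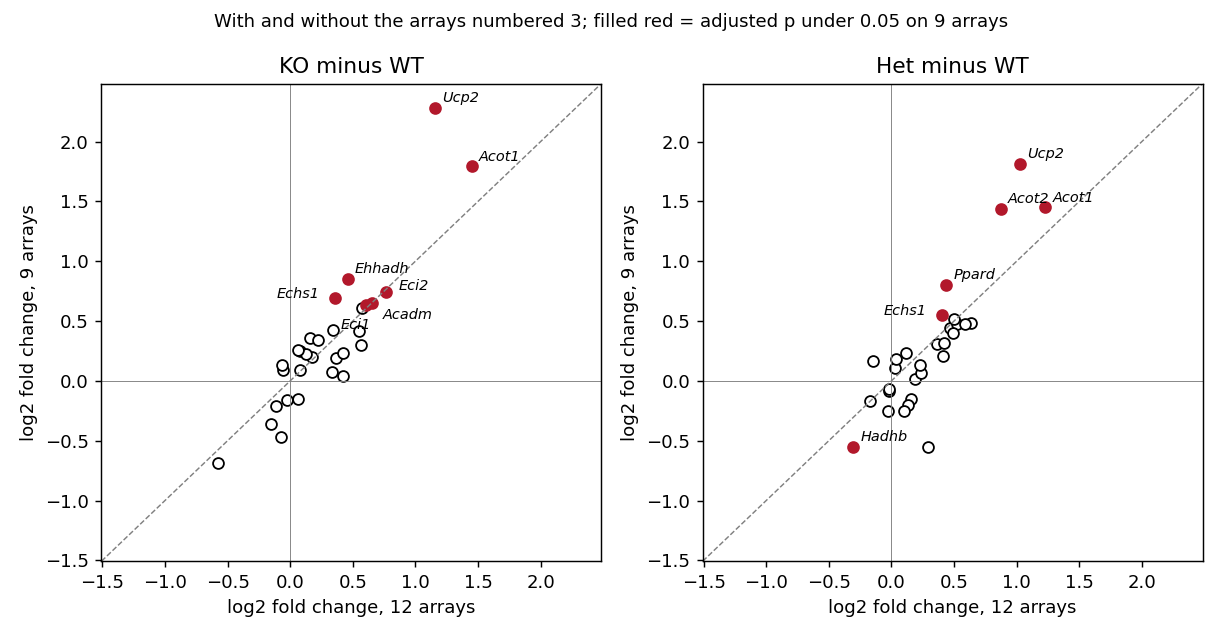
Log2 fold changes of the 30 tested members from all 12 arrays (x axis) and from the 9 arrays without number 3 (y axis), for KO minus WT and Het minus WT, with the line of equal values dashed. Filled red points passed the limma adjusted p threshold on 9 arrays, and Ucp2 lies farthest above the line, at 1.15 against 2.28 in KO minus WT.

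Other genes of the pathway were read from 3 lists. Of 40 tested genes among 44 further fatty acid oxidation genes, 2 rose in KO against WT and 1 fell in Het against WT. Abcd3, a transporter of the peroxisomal membrane, rose by 0.64 (SE 0.14, limma adjusted p = 0.0420) in KO cells. Eci3 rose by 0.80 (SE 0.18, limma adjusted p = 0.0477) in KO cells, and Acad11, an acyl-CoA dehydrogenase, fell by 0.94 (SE 0.20, limma adjusted p = 0.0473) in Het cells. None of the 40 was called in KO against Het by limma, where 2 had an unadjusted p under 0.05. The shares of all genes called in each comparison are those given above for the members. When the arrays numbered 3 were left out, 7 of the 40 rose and 5 fell in KO against WT, and 1 rose and 3 fell in Het against WT.

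Of 17 tested genes among 18 PPAR receptors and cofactors, none was called by limma in any of the 3 comparisons, and 3, 4 and 2 had an unadjusted p under 0.05 in KO minus WT, Het minus WT and KO minus Het. Ppara, the gene of PPAR alpha itself, averaged -4.26 in KO, -5.28 in Het and -5.03 in WT cells, with 0.77 (SE 0.23, limma adjusted p = 0.119) in KO minus WT and 1.02 (SE 0.23, limma adjusted p = 0.0702) in KO minus Het. Without the arrays numbered 3 both were called, at 0.88 (limma adjusted p = 0.0375) and 1.26 (limma adjusted p = 0.0125). In all, 2 of the 17 rose and 1 fell in KO against WT without those arrays, 3 rose and 1 fell in Het against WT, and 1 rose and 1 fell in KO against Het. Foxo1, a transcription factor that SIRT1 deacetylates, differed by 0.80 (SE 0.26, limma adjusted p = 0.154) in KO minus WT. Rxra, the partner receptor, and Pparg, the adipogenic PPAR, differed by 0.76 and 0.87 in Het minus WT (limma adjusted p = 0.141 and 0.162), and Pparg by -0.86 in KO minus Het (limma adjusted p = 0.248).

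Of 30 tested genes among 37 other PPAR targets, 2 rose and 1 fell in KO against WT, and 1 rose and 2 fell in Het against WT. Fgf21, a hormone induced by fasting in liver, had levels of -0.94, -3.13, -0.71 and -0.75 in KO, -0.45, -2.63, -0.70 and -0.52 in Het and -4.30, -5.03, -4.15 and -3.83 in WT cells. All KO and Het arrays were above all WT arrays. It rose by 2.94 (SE 0.60, limma adjusted p = 0.0382) in KO and by 3.25 (SE 0.60, limma adjusted p = 0.0392) in Het cells. Lpl, the lipase that releases fatty acids from lipoproteins, had levels of -3.49, -6.60, -3.59 and -3.84 in KO, -3.90, -4.57, -4.37 and -4.58 in Het and -0.23, -0.45, -0.57 and -0.73 in WT cells. It fell by 3.89 (SE 0.57, limma adjusted p = 0.00880) in KO cells, where it was well above background on 3 of 4 arrays, and by 3.86 (SE 0.57, limma adjusted p = 0.0160) in Het cells.

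Creb3l3, a transcription factor of liver lipid metabolism, rose by 2.68 (SE 0.53, limma adjusted p = 0.0336) in KO cells, where replicate 3 was at -4.45 and the other arrays at -1.95, -1.93 and -1.93. Slc25a42, a mitochondrial coenzyme A carrier, fell by 1.02 (SE 0.21, limma adjusted p = 0.0469) in Het cells. None of the 30 was called in KO against Het by limma (4 had an unadjusted p under 0.05), where Creb3l3 differed by 2.23 (limma adjusted p = 0.0935) and Plin4, a lipid droplet protein, by -2.03 (limma adjusted p = 0.251). On the 9 arrays without number 3, 6 of the 30 rose and 4 fell in KO against WT, 3 rose and 3 fell in Het against WT, and 1 rose and 2 fell in KO against Het. Of the 9 calls made in these lists on all arrays, Lpl in KO minus WT passed without each of the 12 arrays in turn, and Lpl in Het minus WT was lost without Het replicate 2, 4 or 5 or WT replicate 2 (adjusted p up to 0.0689). With slide fitted as a block both Lpl calls were lost (limma adjusted p = 0.0528 in KO minus WT and 0.0925 in Het minus WT), and 2 of the 9 were kept, Fgf21 in KO minus WT and in Het minus WT (limma adjusted p = 0.0493 and 0.0408). With KO replicates 4 and 5 averaged the 2 kept were those of Lpl (limma adjusted p = 0.0272 and 0.0331). All of the 7 calls other than those of Lpl were lost without any 1 of 8 arrays (KO replicates 2, 4 and 5, Het replicates 2, 4 and 5 and WT replicates 1 and 5), where the largest adjusted p of each call lay between 0.131 and 0.182.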

How the data were processed

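Total RNA of 12 MEF samples was hybridised to one-colour Agilent Whole Mouse Genome 4x44 arrays. Per the file headers and the submitters' processing notes, the authors extracted spots with Agilent Feature Extraction 9.5, and the deposited processed signal is a background-subtracted intensity on a linear scale. The deposited series table holds the same intensity (largest relative difference 0) and was not used further. Genotypes and replicate numbers came from the labels, and the 4 slides from codes in the names of the deposited scans.

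Control and outlier-marked spots were left out, spots of a probe were averaged, and log2 signals were taken minus the array's 75th percentile. The brightest probe stood for each gene name, and a gene was tested if well above background on all arrays of at least 1 genotype. Genotypes were compared in one fit with limma 3.58.1 (R 4.3.3), with Benjamini-Hochberg adjustment and a threshold of 0.05. The fit was run on simulated data with independent noise on every array. That simulation held no arrays that stood apart and no closely alike pair, so it cannot show how the fit handles those. Single probes were also fitted separately. Motifs were searched with Python 3.11.15, promoter alignments made with Biopython 1.88 and figures drawn with matplotlib 3.10.9.

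Values on every array are given for members called with all arrays or without those numbered 3, and for the 6 of smallest unadjusted p in each comparison. In the other lists every gene called on all arrays is named. Where none was called the 2 of smallest p are named, except for the further fatty acid oxidation genes in KO against Het. Calls in these lists without the arrays numbered 3 are given mainly as counts. The members, lists and this rule were chosen with earlier results of these data known. Alternatives were normexp (offset 50), quantile or no scaling, no filter, mean of probes, slide or replicate blocks, array weights and omission of arrays. Gene names are those of the array design, updated through RefSeq where they matched. Array quality limits the precision, and no protein sequences or genome were used here.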

Additional observations from a re-analysis of the deposited data

Results flagged for a closer look

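In 7 of 90 combinations of a tested member and a genotype, 1 of the 4 arrays lay far from the other 3 by Dixon's criterion. Chance flags about 1 in 20 groups, and 5 of the 7 lay on arrays numbered 3. In KO cells, Acsl1 was at 2.27 on replicate 3 against 1.75 to 1.81 on the other arrays. Ucp2 was at -3.25 on KO replicate 3 against -2.05 to -1.95 on the others. In Het cells, Slc25a20 was at -0.00895 on replicate 3 against 0.27 to 0.31. In WT cells, Crat was at 2.69 on replicate 3 against 1.63 to 1.70, and Etfdh was at 1.91 on replicate 3 against 2.72 to 2.86. Acads was at -0.18 on WT replicate 1 against 0.42 to 0.48, and Eci1 was at 3.03 on WT replicate 2 against 2.72 to 2.76.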

How the results depend on the processing

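The 2 members called in KO minus WT were also called with quantile scaling, with the mean of each gene's probes and with slide as a random block, and 1 (Acot1) with normexp background correction. The count was 0 without scaling, without the filter on dim probes and with slide as a block, 7 without the arrays numbered 3 and 15 with array weights. Leaving out single arrays gave 0 to 5 members in KO minus WT, 0 to 4 in Het minus WT and 0 to 0 in KO minus Het. The 5 and 4 were those without WT replicate 3, where 10.4% and 8.84% of all genes were called. In Het minus WT the count was 9 with array weights and 6 without the arrays numbered 3, and in KO minus Het it was 17 with array weights and 1 without those arrays. Averaging KO replicates 4 and 5, an alternative chosen after seeing the data, gave 0 members in KO minus WT, where 0.341% of all genes were called. With the arrays numbered 3 also left out it gave 2 in KO minus WT, 3 in Het minus WT and 1 in KO minus Het. The shares of all genes called there were 8.24%, 8.57% and 5.05%. With array weights 39.1%, 19.1% and 32.5% of all genes were called in KO minus WT, Het minus WT and KO minus Het. Apart from loss of samples where arrays were left out, the cause was not tested. 

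With the replicate number as a block, 0 members were called in KO minus WT. The numbers were not taken to pair the samples throughout. Deviations from the genotype means correlated at over 0.1 in 5 of 10 same-numbered pairs (-0.04 to 0.43), and 5 pairs correlated best with their own number. The arrays numbered 3 did go together across genotypes. Their pairs correlated at 0.36 (KO and Het), 0.22 (KO and WT) and 0.43 (Het and WT), each best with its own number. In levels KO replicate 3 correlated at 0.976 with Het replicate 3 and at most at 0.969 with another KO array. Of the 2 called members' differences none changed sign. Over all 30 members and 3 comparisons, 16 of 90 differences changed sign without scaling, 11 of 90 without the arrays numbered 3, 58 of 1080 when single arrays were left out and 39 of 210 within slides. Among them was Echs1 in KO minus WT, at -0.14 within slide 3, which compares KO replicate 2 with WT replicates 2 and 3. Ppard was near background and Ucp3 below it, so their levels are limited by signal over background, and 4 arrays per genotype limit the precision of all differences.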
